A study of Danio rerio with 7 samples.

Results

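At 24 h post-fertilization (hpf), when the zebrafish heart is a tube, RNA of whole embryos injected with a morpholino against tbx5 (tbx5-MO) was compared with RNA of wild-type (WT) embryos. The comparison rests on the 2 arrays labelled 24 hpf of the 7 arrays in the study, and each probe was described by its log2 ratio of morphant over WT on each array. The study asked which genes change in expression when tbx5 is knocked down during heart and fin formation, and its other arrays were taken at 30 hpf (2 arrays) and 48 hpf (3 arrays). Embryos were of the AB strain, and morphants had been injected with tbx5-MO at the 1-cell stage, whereas the reference RNA is labelled control wild type. Total RNA of embryos was labelled, and the morphant RNA carried Cy5 and the WT RNA carried Cy3. With no dye-swapped array, dye and morpholino cannot be told apart in these ratios, and no array of embryos injected with a control morpholino was analysed here. The sources used here do not say that the 2 arrays came from separate collections of embryos. Unless stated otherwise, p-values below rest on a spread within stages that was pooled over all 7 arrays. They do not measure the spread of the 24 hpf arrays by itself, and the pooled spread may be technical.

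Tbx5 is a T-box transcription factor of the heart field and the forelimb field. In zebrafish its loss stops the pectoral fin buds from forming and leaves a heart that does not loop properly, and in humans mutations in TBX5 cause Holt-Oram syndrome, in which the heart and the upper limbs are malformed. A morpholino is a synthetic antisense oligomer that blocks translation or splicing of its target, and injected embryos can also show cell death and slower development that do not depend on the target, which is why genes of cell death, stress and many tissues are described here beside those of heart and fin.

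The value table held 43663 probes without gene names. Names came from the authors' 3 lists of probes that were at least 1.5-fold lower in the morphants on every array of a stage, by finding the 1 row of the table with the same values. Of 6740 probes in the lists, 6662 were placed, which left 37001 probes of the table unmatched. Of those placed, 4278 carried a gene symbol, which gave 3794 named genes. The other 39385 probes of the table had no gene name. A gene named through the 24 hpf list was thus chosen for being lower on both arrays, and its values are a description. The 2253 genes named through the 30 and 48 hpf lists were chosen by other arrays, and the gene groups below were counted over these alone, with the values of the probes that the 30 and 48 hpf lists hold. A named gene that was higher at 24 hpf had been lower at another stage by this choice. The RNA of tbx5 was not analysed here, since no list named it, and a morpholino against the start of translation need not change the level of its target RNA.

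Many log2 ratios recurred on an array, as ratios of small whole numbers do, and a value found over 10 times on an array was treated as dim, an inference, since no brightness was read. They made up 49.4% of replicate 1 and 60.1% of replicate 2. Genes without such a value on either array are called well measured below. This label stands for the limit on repeats alone, and different probes of such genes could still lie far apart, as given below. The array medians were -0.03 and 0.00, so changes are relative to the median probe.

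The 2 arrays agreed poorly. Over all 43663 probes they correlated with a Pearson's r of 0.07 and a Spearman's rho of 0.10, across probes, which are not independent replicates. Of these probes, 3367 (7.71%) lay at least 1.5-fold lower in morphants on both arrays, 2956 (6.77%) at least 1.5-fold higher on both, and 4367 at least 1.5-fold changed on opposite sides. The share of changed probes that lay on the same side was higher where fewer values recurred, from 54.1% of 6828 among probes with a repeated value to 68.1% of 3862 among the 11668 with values found at most 10 times, and to 79.2% of 611 among the 2666 with values found once on each array. In this last class r was 0.24, and the agreement was mostly on the lower side, with 375 probes lower on both arrays, 109 higher on both and 127 on opposite sides.

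**Figure D1:**
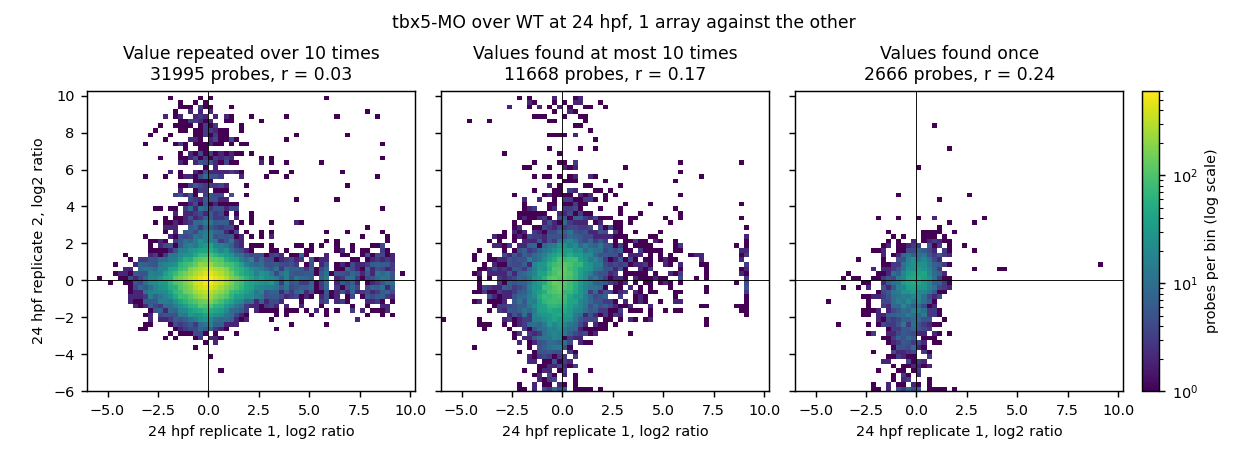
Number of probes per bin (colour, log scale) by the log2 ratio of tbx5-MO over WT on 24 hpf replicate 1 (x axis) and replicate 2 (y axis), for 31995 probes with a value repeated over 10 times on an array, 11668 probes with values found at most 10 times and 2666 of these with values found once; values past the axes are drawn in the last bin. The far values form a horizontal and a vertical arm, each extreme on 1 array and near 0 on the other, and r is 0.03, 0.17 and 0.24.

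Few of the very high ratios on an array recurred on the other. On replicate 1, 849 probes had a log2 ratio above 5, and their median on replicate 2 was 0.17. On replicate 2, 433 probes had one above 5, and their median on replicate 1 was 0.01. The other 5 arrays held between 70 and 395 such probes. Both 24 hpf arrays put 16 probes above 5, of which 2 had a name and 11 a repeated value. Very low ratios were rarer, with 2 probes below -5 on replicate 1, 68 on replicate 2 and 0 on both.

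With limma, which fitted a mean for each stage over all 7 arrays, 13 of 43179 genes and single probes (0.0301%) differed from 0 at 24 hpf at an adjusted p under 0.05, 12 of them higher in morphants and 1 lower. An unadjusted p under 0.05 was reached by 5204, of which 2563 were higher and 2641 lower. The only one of the 13 with a name was adora2aa, an adenosine receptor, with log2 ratios of 6.70 and 5.95 at 24 hpf. Its ratios were -1.39 and -0.81 at 30 hpf and 0.02, -0.09 and -1.07 at 48 hpf, so the 24 hpf arrays did not overlap with the others. The mean of adora2aa was 6.33 (SE 0.43), with an adjusted p of 0.016 from limma, but its 2 values recurred 23 and 24 times on their arrays and so come from the class treated as dim. The same value of 6.70 stood on replicate 1 for the myosin gene myh7l. Without replicate 1, 2 or 3 of 48 hpf the adjusted p of adora2aa was 0.11, 0.063 or 0.056. Among the 12 that rose, the values lay between 4.42 and 8.93 on replicate 1 and between 4.45 and 9.18 on replicate 2, and none exceeded 2.26 in size at 30 or 48 hpf. The 1 that fell had no name, with ratios of -4.32 and -3.73 and an adjusted p of 0.036. In 8 of the 13, a value recurred over 10 times. The difference between 24 and 30 hpf passed for 1 feature (0.00232%), and the difference between 24 and 48 hpf for 1 feature (0.00232%), in both cases the same unnamed probe, with ratios of 8.38 and 8.88 at 24 hpf. The replicate 1 value of this probe was found 20 times on its array, so it too comes from the class treated as dim. An unadjusted p under 0.05 was reached by 3454 and 3446 features in these differences. The count of 13 turned on the fit and its arrays. It was 0 with the 24 hpf arrays alone and 0 with a replicate block. It was 1032 without replicate 1 and 1540 without replicate 2 of 24 hpf, where the lone array is assumed to vary like the other stages, 7 without 1 or the other 30 hpf array, and 2, 1 and 1 without replicates 1, 2 and 3 of 48 hpf.

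When the same fit was limited to the 2585 genes and single probes with values found once on each 24 hpf array, 81 (3.13%) passed, and 70 of them were lower in morphants. This count depended on the limit, as only 7 passed among features with values found once on all 7 arrays. Of the 81, 20 had no name, 59 were named through the 24 hpf list, and 2 only through the others. The genes given here from this set were picked after their values were seen. The lower ones included genes of fast muscle fibres. Here mylpfa, a regulatory myosin light chain, had log2 ratios of -1.77 and -4.26 (adjusted p 0.043 from limma), and ckmb, a muscle creatine kinase, of -1.58 and -3.40 (adjusted p 0.040). They also held transcription factors of neural progenitors, sox2 at -1.40 and -2.30 (adjusted p 0.043) and sox19b at -1.43 and -1.95 (adjusted p 0.043), and sox11b of newborn neurons at -1.23 and -2.68 (adjusted p 0.047). Further lower genes were jag2b, a Notch ligand, at -1.79 and -2.16 (adjusted p 0.026), and tfap2a, a factor of epidermis and neural crest, at -1.16 and -1.34 (adjusted p 0.043). Replicate 2 gave the larger change in each of these 7 genes. Probes of sox19b and jag2b with repeated values, through which the 30 or 48 hpf lists named them, did not follow, with -2.41 and 1.06 for sox19b and 0.36 and -1.10 for jag2b. Of the 11 features that were higher, 2 had names. The catalytic prolyl hydroxylase subunit p4ha1b, which modifies collagen, had ratios of 1.32 and 1.72 (adjusted p 0.043), and eif2b4, a subunit of the exchange factor of eIF2, of 1.22 and 1.34 (adjusted p 0.043). In the fit over all features none of these genes passed.

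The 15 lowest well measured genes, ranked by the smaller of their changes on the arrays, were far below 0 on both arrays and had adjusted p-values between 0.23 and 0.34 from limma over all features. All of them stood in the 24 hpf list, so their low values follow from the choice. The lowest was stau1, a double-stranded RNA-binding protein that carries mRNAs, with log2 ratios of -4.05 and -2.46 (mean -3.26 ± 1.13 S.D., n = 2). Transcription factors were among them, with ratios of -2.16 and -3.41 for etv4, an ETS factor that responds to FGF signalling. The ratios of scrt2, a Snail-family repressor of neurons, were -2.70 and -2.03, and those of her15.2, a Notch target of neural progenitors, were -2.76 and -2.07. Enzymes of haem synthesis and respiration were represented by urod, a decarboxylase of the haem pathway, at -2.07 and -2.88, and by ndufb11, a subunit of respiratory complex I, at -2.38 and -2.82. Also among the 15 were pfn2a, a profilin that binds actin, at -2.09 and -2.75, smarcd2, a subunit of the SWI/SNF chromatin remodeller, at -2.60 and -2.07, and mre11a, a nuclease of DNA repair, at -2.66 and -1.99. Of those given here, her15.2 had a mean of -2.14 at 30 hpf and ndufb11 of -1.06, and the others lay between -0.48 and 0.32.

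**Figure D2:**
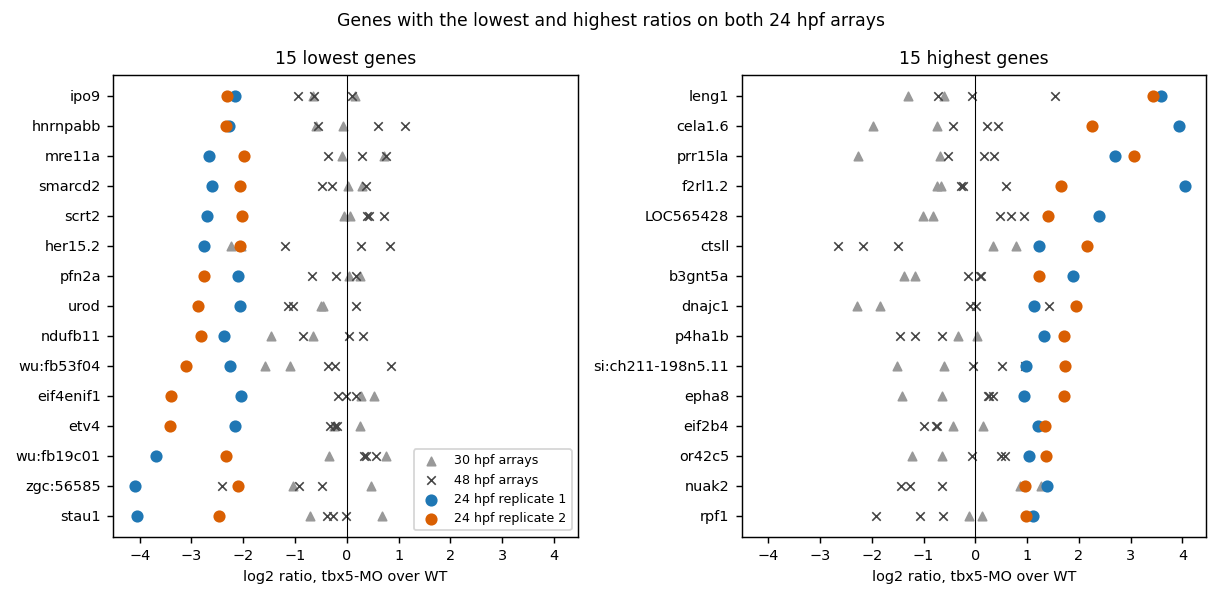
Log2 ratio of tbx5-MO over WT (x axis) of the 15 lowest and the 15 highest well measured genes on both 24 hpf arrays (coloured points), with the 30 hpf arrays as triangles and the 48 hpf arrays as crosses. Both 24 hpf points of each gene lie on the same side of 0, and for stau1 and leng1 they lie apart from all 5 points of the later stages.

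Of 1616 named and well measured genes, 887 were at least 1.5-fold lower on both arrays and 41 at least 1.5-fold higher on both. In 74 the changes, at least 1.5-fold on each array, lay on opposite sides. The lower count holds the genes that the 24 hpf list chose, and a gene was named only if lower at some stage. These counts thus do not measure the balance of the sides. Of all 11668 probes with values found at most 10 times, 1456 (12.5%) were at least 1.5-fold lower on both arrays and 1175 (10.1%) higher. The 15 highest had adjusted p-values between 0.24 and 0.39 from limma. At the top stood leng1, with log2 ratios of 3.59 and 3.44 (mean 3.51 ± 0.10 S.D., n = 2). Next by the smaller change came prr15la at 2.70 and 3.06 and the pancreatic elastase cela1.6 at 3.93 and 2.25. Also among the 15 was f2rl1.2, a receptor activated by proteases, at 4.05 and 1.65. These 4 genes had been named through the 30 hpf list, and their means at that stage, which chose them, lay between -0.70 and -1.48, while the largest mean at 48 hpf was 0.25, for leng1, with 1 array at 1.55. Lower down were ctsll, a cathepsin L of the lysosome, at 1.22 and 2.16, and dnajc1, a chaperone of the endoplasmic reticulum, at 1.12 and 1.94. The kinase nuak2, of the AMPK family, had ratios of 1.38 and 0.96, and p4ha1b and eif2b4 were in the same group. The means of ctsll, nuak2, p4ha1b and eif2b4 at 48 hpf, the stage that named them, lay between -0.83 and -2.11.

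The 2253 genes named by the other stages lay below 0 on balance. Their median log2 ratio was -0.16 on each array, against -0.02 and 0.01 over all 43179 features tested. Of the 2253, 836 (37.1%) were below 0 on both arrays and 434 (19.3%) above 0 on both, and 264 (11.7%) were at least 1.5-fold lower on both and 85 (3.77%) at least 1.5-fold higher. Over all features these shares were 27.3%, 26.4%, 7.22% and 6.80%. The gene groups were read against the 2253. There were 33 lists with at least 5 members. Ordered by the median of the gene means, they ran from pigment cells, with medians of -0.65 and -0.45 on the 2 arrays, to hatching gland and cathepsins, with 0.37 and 0.30. For some lists the arrays lay on opposite sides of 0, the farthest apart being cytosolic ribosomal proteins.

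**Figure D3:**
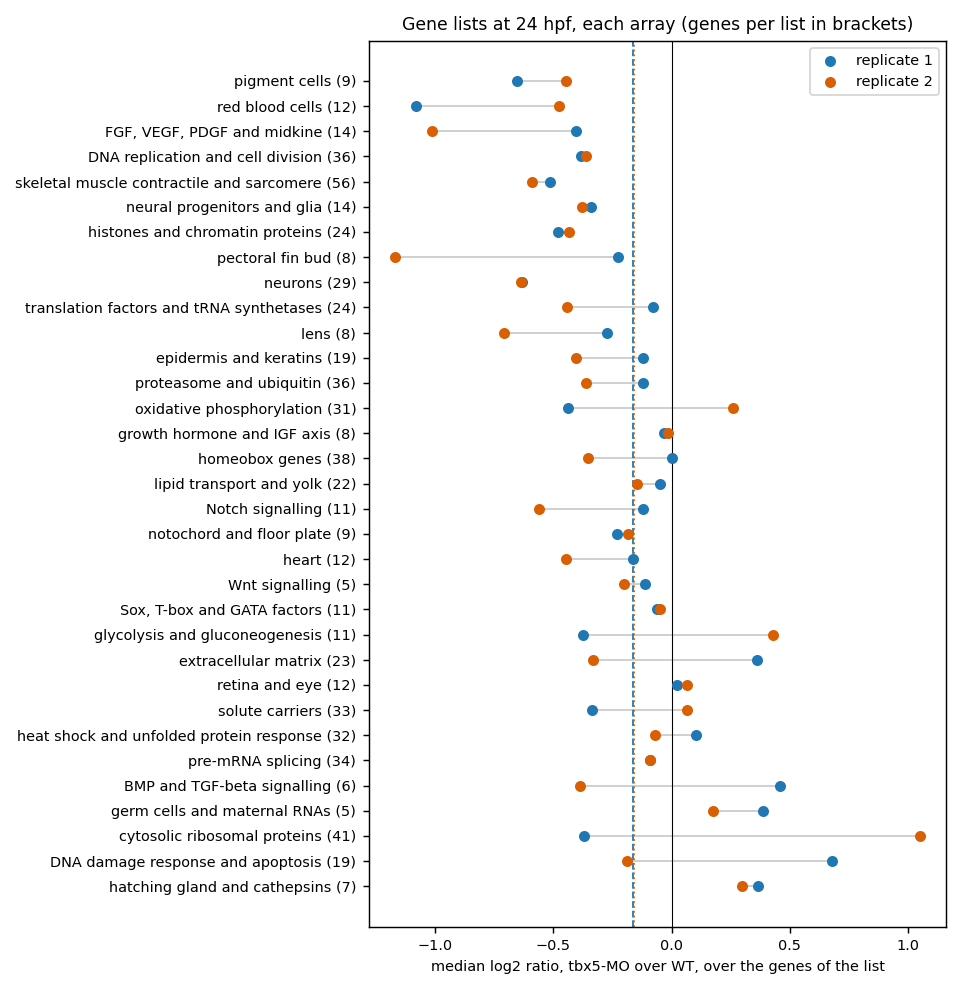
Median log2 ratio of tbx5-MO over WT (x axis) over the members of 33 gene lists on 24 hpf replicate 1 (blue) and replicate 2 (orange), joined by a line, with the number of genes in brackets; dashed and dotted lines mark the medians of the 2253 genes on the 2 arrays, both -0.16. Skeletal muscle, neurons, DNA replication and chromatin lie left of these lines on both arrays, whereas cytosolic ribosomal proteins lie at -0.37 and 1.05.

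Skeletal muscle genes had low ratios in the morphants on both arrays. Of 56 contractile and sarcomere genes, 33 (58.9%, against 37.1% of all 2253 genes) were below 0 on both and 5 above 0 on both. At least 1.5-fold lower on both were 17 (30.4%, against 11.7%), and 0 were at least 1.5-fold higher. The medians were -0.51 and -0.59, and -0.66 and -0.999 over the 36 well measured genes. The lowest was actc1b, an actin of striated muscle, with log2 ratios of -1.28 and -5.51, followed by mylpfa, given above, and the essential light chain myl1, at -1.61 and -3.67. Then came ckmb, given above. The fast troponin T tnnt3a had ratios of -0.74 and -3.45, and tpma, a tropomyosin, of -1.14 and -2.27. In all of these, replicate 2 gave the lower ratio. The arrays were closer for pvalb2, a parvalbumin that buffers calcium in fast fibres, at -1.02 and -1.03. Below 0 on both arrays were also smyhc1, a slow myosin heavy chain, at -0.57 and -1.19, and unc45b, a myosin chaperone, at -0.64 and -1.36. The 5 genes above 0 on both arrays included desma, the intermediate filament desmin, at 0.12 and 0.61, and xirp1, a protein of cell junctions in muscle, at 0.63 and 0.54. The genes tpma, pvalb2, smyhc1, unc45b, desma and xirp1 were chosen after their values were seen. None of the 56 passed limma over all features, and the lowest adjusted p among the 5 with the lowest means was 0.31, for ckmb. In whole embryos, fewer cells of a type and less RNA per cell cannot be told apart.

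Heart and fin bud genes, of the tissues in which tbx5 acts, were few, and 3 of 12 and 4 of 8 were well measured. Of 12 heart genes, 5 were below 0 on both arrays and 2 above 0 on both, none was changed at least 1.5-fold on the same side on both, and the medians were -0.16 and -0.45, against 0.35 and 0.08 over the 3 well measured genes. The cardiac troponin T gene tnnt2a had log2 ratios of -1.60 and -0.35, and tnnc1a, a troponin C of heart and slow muscle, of -0.50 and -0.65, and all 4 values were found over 10 times. The transcription factors nkx2.7, of the heart field, and gata5, of heart and endoderm, stood at -0.32 and -0.55 and at 0.35 and 0.08. The highest value, 6.70 for the myosin gene myh7l on replicate 1, met -1.14 on replicate 2. The share of heart genes below 0 on both arrays was close to the 37.1% of all 2253 genes. Of 8 genes of the pectoral fin bud, 5 were below 0 on both arrays and 0 above 0 on both, with medians of -0.23 and -1.17, or 0.22 and -0.82 over the 4 well measured genes, so that the low values came mainly from replicate 2. The zinc finger factor sall1a had ratios of -0.88 and -2.15, and the homeobox genes msx1a and meis1b, the latter a cofactor of Hox proteins, of -0.86 and -1.31 and of -2.19 and -0.28. In sall1a and msx1a 1 of the values was found over 10 times. The ligand shha, made at the posterior edge of the bud but also along the midline, had ratios of 0.62 and -1.29. All of these genes are active in other tissues at this stage, and in RNA of whole embryos the fin bud could not be separated from them.

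**Figure D4:**
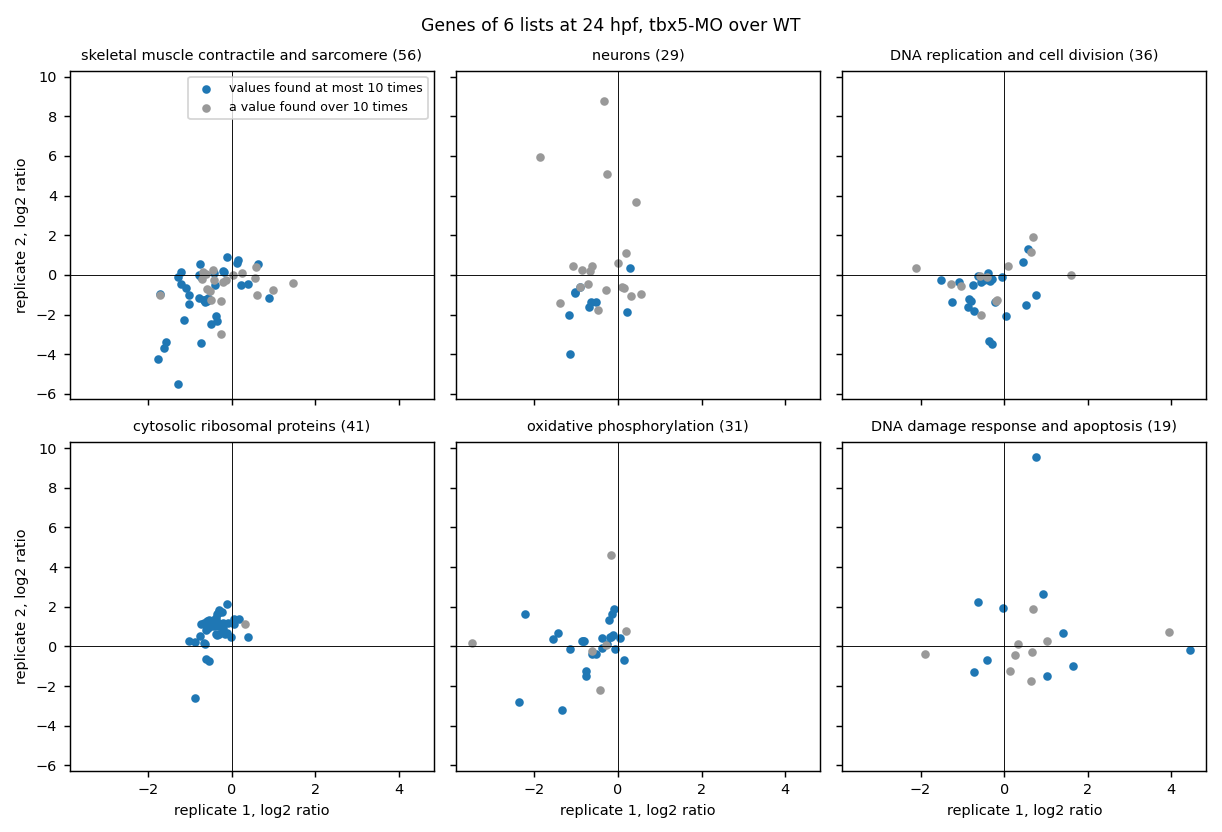
Log2 ratio of tbx5-MO over WT on 24 hpf replicate 1 (x axis) and replicate 2 (y axis) for the genes of 6 lists named through the 30 and 48 hpf lists, with genes that have a value found over 10 times on an array in grey. Muscle genes spread down the lower left, 33 of 56 below 0 on both arrays, and ribosomal protein genes form a cloud to the upper left, below 0 on replicate 1 and above 0 on replicate 2.

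Neuronal genes had low medians on both arrays, of -0.63 and -0.64, and of -0.80 and -1.38 over the 10 well measured genes. Of 29 genes, 13 (44.8%, against 37.1% of all 2253 genes) were below 0 on both arrays and 4 above 0 on both. At least 1.5-fold lower on both were 9 (31.0%, against 11.7%), and 0 were at least 1.5-fold higher. The lowest was lrrn1, a membrane protein of developing neurons, at -1.14 and -4.01, and tuba1c, a tubulin, had ratios of -1.16 and -2.04. The synaptotagmin syt11a, of vesicle membranes, stood at -0.69 and -1.63, elavl4, an RNA-binding protein of neurons, at -0.64 and -1.38, and stmn1a, a stathmin that acts on microtubules, at -1.04 and -0.90. Both elavl4 and stmn1a were chosen after their values were seen. The 4 genes above 0 on both arrays are not named here, so the named genes do not represent the list. Some single values were far above 0 on replicate 2 only. These included 8.77 for syt8 and 5.09 for phox2a, against -0.35 and -0.26 on replicate 1, and in both genes a value was found over 10 times. Of 14 genes of neural progenitors and glia, 9 were below 0 on both arrays and 1 above 0 on both, with medians of -0.34 and -0.38. Beside her15.2 they held her4.5, a further Notch target, at -1.06 and -1.18, whose replicate 1 value was found 93 times on its array. The receptor notch3 had ratios of -0.31 and -0.68 and the ligand dla, deltaA, of -0.36 and -0.61. Over the 11 genes of Notch signalling, 7 were below 0 on both arrays and 0 above 0 on both, with medians of -0.12 and -0.56. A value was found over 10 times in 8 of the 11. The replicate 1 median was no lower than the -0.16 of all 2253 genes.

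Red blood cell genes lay lower on replicate 1, with medians of -1.08 and -0.48 over 12 genes. Of these 12, 7 (58.3%, against 37.1% of all 2253 genes) were below 0 on both arrays and 1 above 0 on both. At least 1.5-fold lower on both were 3 (25%, against 11.7%). A value was found over 10 times in 8 of the 12, and the 4 well measured genes had medians of -1.41 and -0.43. The embryonic globin genes hbae3 and hbae1.1 had log2 ratios of -1.53 and -1.34 and of -1.25 and -0.87. The anion exchanger slc4a1a of the red cell membrane, averaged over 3 probes, had ratios of -2.95 and -2.47 (mean -2.71 ± 0.34 S.D., n = 2) and an adjusted p of 0.21 from limma, and 1 of its probes had a value found over 10 times. Of 9 pigment cell genes 7 were below 0 on both arrays, with gch2, an enzyme of pteridine synthesis in yellow pigment cells, at -0.68 and -1.52, and atic, an enzyme of purine synthesis, at -1.08 and -1.12. Keratin and epidermis genes had medians of -0.12 and -0.40 over 19 genes, 9 below 0 on both arrays and 1 above. The type I keratin krt91 stood at -1.73 and -2.38 and also passed the test among probes with values found once (adjusted p 0.026 from limma). The lens list held 8 genes with medians of -0.27 and -0.71, and in 7 of them a value was found over 10 times. Of the 8 lens genes, 4 were below 0 on both arrays and 2 above 0 on both. Among the lower ones, the crystallin crybb1 had ratios of -1.63 and -0.92, and cryba1b of -2.06 and -3.15. The replicate 1 value of cryba1b was found 30 times on its array. Retina and eye genes gave no side, with medians of 0.02 and 0.07 over 12 genes, 2 of them below 0 on both arrays and 3 above, and of 0.05 and -0.25 over the 3 well measured ones.

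Genes of cell division and chromatin were lower in value on both arrays by a like amount. Of 36 genes of DNA replication and cell division, 25 (69.4%, against 37.1% of all 2253 genes) were below 0 on both and 5 above 0 on both. The medians were -0.38 and -0.36. At least 1.5-fold lower on both were 6 (16.7%, against 11.7% of all 2253), a share not far from the reference. At least 1.5-fold higher on both were 2, against 3.77% of all 2253. Most members were thus below 0 by a small amount. The largest changes came from replicate 2, where ccnb1, the mitotic cyclin B1, had a log2 ratio of -3.49 and mcm6, a subunit of the replicative helicase, of -3.32, against -0.29 and -0.36 on replicate 1. The arrays were closer for aurka, a mitotic kinase, at -1.24 and -1.37. The sliding clamp pcna had ratios of -0.72 and -1.80. On the other side was mad2l1, of the spindle checkpoint, at 0.58 and 1.29. The 24 histone and chromatin genes had medians of -0.48 and -0.43, with 13 below 0 on both arrays and 4 above. The chromatin proteins hmgb1b and anp32a stood at -0.63 and -2.37 and at -0.90 and -1.91 over their probes in the lists of the later stages, and the histone chaperone seta, at -1.07 and -2.52, passed among probes with values found once (adjusted p 0.048 from limma). Genes of pre-mRNA splicing lay close to 0, with medians of -0.09 and -0.09 over 34 genes, but the 23 well measured ones had medians of -0.13 and -0.67.

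Ribosomal protein genes went opposite ways on the 2 arrays. Over 41 genes, 40 of them well measured, the median was -0.37 on replicate 1 and 1.05 on replicate 2, and only 3 were below 0 on both arrays and 5 above 0 on both. Typical members were rps7 at -0.60 and 1.26 and rpl27 at -0.34 and 1.67. The 3 genes below 0 on both arrays were rpl3, at -0.88 and -2.60, rpl28, at -0.63 and -0.65, and rps27.1, at -0.54 and -0.73, the last chosen after its values were seen. Oxidative phosphorylation had medians of -0.44 and 0.26 over 31 genes, of which 11 were below 0 on both arrays and 2 above. Its complex I subunit ndufa10 had ratios of -1.34 and -3.20 and the Rieske protein uqcrfs1 of complex III of -0.78 and -1.50, whereas uqcrh, of the same complex III, had -2.23 and 1.62. The glycolysis list had medians of -0.37 and 0.43 over 11 genes, but of -0.29 and -0.09 over the 7 well measured ones. In it aldoab, an aldolase of muscle, stood at -1.17 and -1.83 and ldha, lactate dehydrogenase, at 0.89 and 1.08. For 33 of the 41 ribosomal protein genes and 18 of the 31 oxidative phosphorylation genes a mean over both arrays lies between values of opposite sign. In the lists, the array name of replicate 1 begins with the same number as those of the 30 hpf arrays and that of replicate 2 with the same number as those of the 48 hpf arrays. What the number stands for is not stated. The value of each 24 hpf array is also the value within its number, whose part in the difference was not tested.

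Genes of the DNA damage response and apoptosis, which are known to react to morpholinos themselves, were mostly higher in value on replicate 1 and divided on replicate 2. Of 19 genes, 7 were above 0 on both arrays and 3 below 0 on both, 5 were at least 1.5-fold higher on both and 1 at least 1.5-fold lower, and the medians were 0.68 and -0.19. Over the 10 well measured genes the medians were 0.84 and 0.24, so that the side on replicate 2 turned with the genes treated as dim. The ubiquitin ligase mdm2, which is induced by DNA damage, had log2 ratios of 1.41 and 0.67, and sesn3, a sestrin of the stress response, of 0.92 and 2.62. The 3 probes of the cyclin G gene ccng1, also induced by DNA damage, had 1.41, 1.72 and 1.81 on replicate 1 and 2.29, 1.69 and -6.99 on replicate 2, so a single probe turned its mean to -1.001 on that array. On the 30 hpf arrays all 3 probes were above 0, and on the 48 hpf arrays all were below 0, the side that named the gene. The genes ccng1 and mdm2 were chosen for the text after their values were seen. Caspase genes had single high values, with caspb at 0.75 and 9.54 and casp2 at 3.95 and 0.72. Heat shock and unfolded protein genes gave no common side by their medians, of 0.10 and -0.07 over 32 genes. Over the 16 well measured genes the medians were -0.02 and 0.34. Of the 32, 10 were below 0 on both arrays and 11 above, 1 was at least 1.5-fold lower on both and 4 at least 1.5-fold higher. Over all 2253 genes these shares were 37.1%, 19.3%, 11.7% and 3.77%, so the counts of this group leaned to the higher side of that reference. The stress-induced chaperone hsp70l had ratios of 0.73 and 1.67, and dnajc1, given above, was also higher on both arrays. In contrast, hsp90b1, a chaperone of the endoplasmic reticulum, had -1.11 and -3.42.

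**Figure D5:**
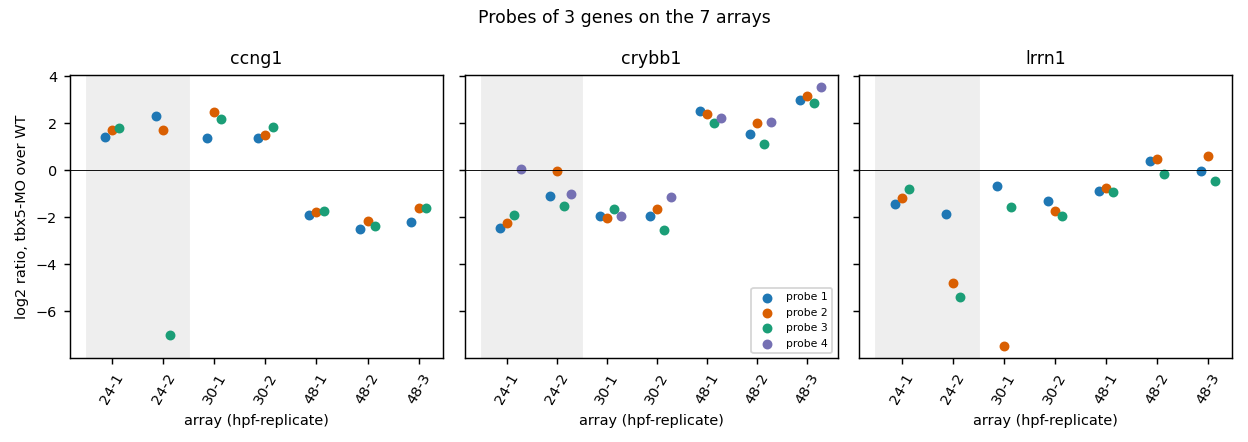
Log2 ratio of tbx5-MO over WT (y axis) for each probe of ccng1, crybb1 and lrrn1 on the 7 arrays (x axis, stage in hpf and replicate), with the 24 hpf arrays shaded. On 24 hpf replicate 2 the probes of ccng1 and lrrn1 spread far apart, for ccng1 with values of 2.29, 1.69 and -6.99, whereas those of crybb1 lay closer together than on replicate 1.

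Of the signalling groups, Notch is given above. Over 14 genes of FGF, VEGF, PDGF and midkine signalling, 6 were below 0 on both arrays and 1 above 0 on both, with medians of -0.40 and -1.01. The share below 0 on both, 42.9%, was close to the 37.1% of all 2253 genes. At least 1.5-fold lower on both were 4 (28.6%, against 11.7%), and 1 was at least 1.5-fold higher on both. A value was found over 10 times in 10 of the 14. The FGF feedback inhibitor spry1, a Sprouty, had log2 ratios of -0.95 and -1.11. The FGF-responsive etv4, given above, was named by the 24 hpf list alone, so its low value follows from the choice. The midkines differed in side, with mdkb at -1.63 and -2.17 and mdka at 1.37 and 0.65. The growth hormone and IGF list held 8 genes with medians of -0.03 and -0.01, 1 below 0 on both arrays and 1 above, and of 0.22 and -0.61 over the 5 well measured genes. Growth hormone itself, gh1, stood at -0.28 and 0.16 with repeated values. The receptor gene ghra, at -0.67 and -0.93, was named by the 24 hpf list alone, and its replicate 1 value was found 12 times. Some of the other growth-related genes that the study names for 24 hpf also had a value found over 10 times. The lowest adjusted p among the growth-related genes that the study names for this stage was 0.32, for mdkb, from limma over all features, and mdkb passed among probes with values found once (adjusted p 0.040 from limma). Extracellular matrix genes parted between the arrays, with medians of 0.36 and -0.33 over 23 genes, but the type I collagen genes col1a1a and col1a2 were low on both, at -0.74 and -2.73 and at -1.24 and -1.80. The collagen-modifying enzymes p4ha1b, given above, and plod1a, a lysyl hydroxylase at 0.63 and 1.12, were high on both.

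Different probes of 1 gene gave a measure of the error within each array. For the 206 genes with at least 2 probes in the lists of the later stages, the first 2 probes differed by a median of 0.46 on replicate 1 and 1.07 on replicate 2, and lay on the same side of 0 in 69.9% and 62.1% of genes. Over the 105 genes that were well measured, the difference was 0.40 on replicate 1 and 0.99 on replicate 2, against 0.31 to 0.38 on the 5 arrays of the other stages, whose values had chosen these probes. Probes of a gene thus lay farther apart on replicate 2, which also gave the lower values named above for muscle, lrrn1, ccnb1 and mcm6. In lrrn1 the 3 probes had -1.84, -4.79 and -5.40 on replicate 2, and -1.44, -1.18 and -0.81 on replicate 1. The first probe of a gene on replicate 1 and the same probe on replicate 2 differed by a median of 0.85 in the well measured genes, less than 2 probes of a gene on replicate 2. Genes with well measured but opposite values were led by ccdc28b, a protein linked to cilia, at -2.28 and 2.83. The glutathione reductase gsr had -2.17 and 3.57, the small heat shock protein hspb8 had 2.17 and -1.54, and cwc27, of the spliceosome, had 4.30 and -1.47. For such genes the mean of the arrays, between 0.28 and 1.42 here, describes neither array.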

How the data were processed

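Whole embryos were measured on 2-colour Agilent zebrafish arrays, which the authors scanned with a GenePix scanner and normalized in GeneSpring GX. The value table that they deposited holds a log2 ratio for each of 43663 probes on every array, with no missing value, read as tbx5-MO (Cy5) over WT (Cy3). Normalization steps, dim-spot filters and genome build were not given in the sources used here. Signal over background is unknown, and precision is limited by the number of arrays. The deposited lists hold the same log2 ratios for probes that were 1.5-fold lower on every array of a stage, with gene names.

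A listed probe was placed in the value table where its values on all arrays of its stage matched those of 1 row, within 2e-06. Of the placed probes, 4278 carried a symbol, 3928 matched the reference table by Entrez number, and 2039 symbols were updated through it. Averaging the probes of a symbol left 3794 genes beside 39385 single probes. With limma 3.58.1 (R 4.3.3), 1 mean per stage was fitted over the 7 arrays, with tests of the 24 hpf mean and of its differences from the means at 30 and 48 hpf, two-sided with Benjamini-Hochberg adjustment over 43179 features and a threshold of 0.05. The fit was tested on simulated data. Gene groups were described by counts and medians over the genes named through the 30 and 48 hpf lists, with no test. From the 37 gene lists, 9 genes were left out that had entered through their symbols, a choice made with values known. The members and lists were chosen with earlier results of these data known.

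The rule for named genes took up to 15 lower and 15 higher genes, ranked by the smaller change of the 2 arrays, with the same side and at least 1.5-fold on both and no value found over 10 times, and up to 10 genes with opposite sides. It added up to 5 members of each list by the size of the mean among those with 1 side on both arrays, the growth-related genes that the study names, and genes with 3 or more probes. Of the 106 genes named, 24 lie outside the rule and were chosen after their values were seen. Alternatives were the 24 hpf arrays alone, robust moderation, median centring, scaling to 1 median absolute deviation, quantile normalization, a replicate block, the number that opens the array names as a block, single probes, the median of a gene's probes, limits on repeated values, other thresholds, and each array left out in turn. Limits on repeated values over all 7 arrays were added after seeing the data. Figures were drawn with matplotlib 3.10.9.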

Additional observations from a re-analysis of the deposited data

Results flagged for a closer look

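At least 1.5-fold changes on both 24 hpf arrays were met by at least 1.5-fold changes to the opposite side on every array of another stage for a number of the genes named above. No such difference passed in limma over all features. The unnamed probe given below was flagged because its differences passed in limma, without such a reversal. Its ratios were 0.05 and 0.11 at 30 hpf and 0.21, 0.55 and -0.58 at 48 hpf. Where the list of the other stage had named the gene, its side there follows from the choice, which holds for all genes that were higher at 24 hpf.

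Some of the genes of differentiated tissue that were lower at 24 hpf were higher at 48 hpf, a stage that had not chosen them, and the genes given here are those that reversed. Others did not, such as myl1 of muscle, which the 48 hpf list had not named, with -0.34, 0.16 and 0.44 at 48 hpf. The muscle genes unc45b and smyhc1 were below 0 at 48 hpf, at -2.45, -0.999 and -2.05 and at -0.90, -0.63 and -0.74. The 48 hpf list had named both, so their side there follows from the choice. The difference of 24 minus 48 hpf on the log2 scale was -4.84 for actc1b, -4.23 for mylpfa, -3.54 for ckmb, -3.21 for pvalb2 and -2.72 for tpma, all of muscle. It was -4.80 for cryba1b and -3.64 for crybb1 of the lens, -3.79 for slc4a1a, -3.18 for hbae3 and -2.37 for hbae1.1 of red blood cells, -4.19 for krt91 of the epidermis and -2.84 for tuba1c of neurons. For spry1, the FGF feedback inhibitor, it was -2.25. The lowest adjusted p among these differences was 0.16, for krt91, with ratios of -1.73 and -2.38 at 24 hpf and 2.11, 2.03 and 2.27 at 48 hpf.

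Higher at 24 hpf and lower at 48 hpf, the stage that named them, were sesn3, with a difference of 4.32, ctsll with 3.80, mdm2 with 3.20, p4ha1b with 2.61, mdka with 2.40, nuak2 with 2.29, plod1a with 2.19 and eif2b4 with 2.11. The chaperone gene hsp70l differed by 4.78 from 48 hpf and by 2.74 from 30 hpf, and the first of these rested on a ratio of -8.54 on 1 of the 48 hpf arrays. Higher at 24 hpf and lower at 30 hpf were adora2aa, with a difference of 7.43 and an adjusted p of 0.070, caspb with 6.42, leng1 with 4.47, cela1.6 with 4.45, prr15la with 4.35, dnajc1 with 3.60, casp2 with 3.59, f2rl1.2 with 3.55 and ldha with 2.27. The unnamed probe that passed in limma differed by 8.55 from 30 hpf (adjusted p 0.047) and by 8.57 from 48 hpf (adjusted p 0.024).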

How the results depend on the processing

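The count of 13 features passing at 24 hpf was 13 with robust moderation, with median centring and with the median of a gene's probes, 14 with single probes and 17 at an adjusted p under 0.1. It was 0 with the 24 hpf arrays alone, 8 with scaling to 1 median absolute deviation, 2 with quantile normalization, 6 among values found at most 10 times and 81 among values found once on each 24 hpf array. With the number that opens the array names as a block it was 1962, since the block then takes up the whole difference between the 24 hpf arrays. With limits over all 7 arrays it was 7 of 1909 (values found once) and 164 of 6761 (at most 10 times, 153 lower). Leaving out each array gave 1 to 1540 features at 24 hpf, 0 to 962 for the difference from 30 hpf and 0 to 1117 for that from 48 hpf, with 542 and 604 of the latter without 24 hpf replicate 1 and 257 for 30 hpf without 30 hpf replicate 2. The difference from 30 hpf gave 0 under each limit on repeated values. That from 48 hpf gave 18 among values found at most 10 times on its own 5 arrays, 53 among values found once on all 7 arrays and 78 among values found at most 10 times on all 7.

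Deviations of arrays with the same replicate number correlated between -0.058 and 0.020, so these numbers gave no sign of paired arrays. At 24 and 30 hpf the deviations of the 2 arrays of a stage are equal and opposite. Both same-numbered pairs of these stages thus gave the same value and are not separate checks. The authors' own name for replicate 2 of 24 hpf holds a 3, as does that of replicate 3 of 48 hpf. Pairing by the numbers in those names was not tested for these 2 arrays and is not excluded. With a replicate block 0 features passed at 24 hpf and 0 in each difference between stages, hsp70l turned to -1.28, and adora2aa missed the threshold.

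The 3367 lower and 2956 higher probes became 1037 and 1014 at 2-fold, 1456 and 1175 among values found at most 10 times, and 10979 to 11105 and 10490 to 10520 with 1 array alone. Of the 33 list medians 13 moved with values found at most 10 times. The median of retina and eye genes, over the gene means, turned to 0.024 and 0.065 on 1 array alone, and over all named genes that of hatching gland and cathepsins turned to -0.21 and that of germ cells to -0.67. With 1 array alone, the sign of the mean turned for 13 of the 106 genes. The lower and the higher array gave -1.47 and 4.30 for cwc27, -0.28 and 0.16 for gh1, -1.54 and 2.17 for hspb8, -2.23 and 1.62 for uqcrh, -1.001 and 1.65 for ccng1, -1.14 and 6.70 for myh7l, -2.28 and 2.83 for ccdc28b, -2.17 and 3.57 for gsr, -0.26 and 5.09 for phox2a, -0.34 and 1.67 for rpl27, -0.60 and 1.26 for rps7, -1.29 and 0.62 for shha and -0.35 and 8.77 for syt8. Centring changed no side of the 106 genes. The causes were not tested.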

Other observations

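Several groups not described above are given here beside the medians of the 2253 genes, which were -0.16 on each array. Of the 2253, 37.1% were below 0 on both arrays and 19.3% above 0 on both. Over 36 proteasome and ubiquitin genes the medians were -0.12 and -0.36, with 15 (41.7%) below 0 on both arrays and 3 above 0 on both. The share below 0 on both was thus close to that of the 2253. In this group psmd7, a lid subunit of the proteasome, had log2 ratios of -2.46 and -1.69. The 24 translation factors and tRNA synthetases had medians of -0.08 and -0.44, with 13 (54.2%) below 0 on both arrays and 2 above. Homeobox genes, 38 in number and 6 of them well measured, had medians of 0.00 and -0.35. Over 33 solute carriers the medians were -0.34 and 0.06, and over 22 genes of lipid transport and yolk they were -0.05 and -0.14. In this last group fabp3, a fatty acid-binding protein, stood at -1.76 and -0.48, and apoeb, an apolipoprotein, at 0.55 and 1.07. The 9 genes of notochord and floor plate had medians of -0.23 and -0.18, or 0.55 and -0.69 over the 4 well measured ones.

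The list of hatching gland and cathepsins, in which all 7 genes were cathepsins, had medians of 0.37 and 0.30, the highest median of the gene means among the 33 lists, and 4 were above 0 on both arrays and 1 below. Beside ctsll these were ctsh, at 0.43 and 1.31, ctsla, at 0.37 and 0.30, and ctsc, at 0.47 and 0.39 with values found over 10 times, all proteases of the lysosome. The value of ctss2.1, a cathepsin S, was -5.91 on replicate 2 and -0.24 on replicate 1. Over all named genes, which include those chosen for being lower at 24 hpf, the median of this group was below 0.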
